A study of Caenorhabditis elegans with 2 samples.

Results

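Cytochrome P450 enzymes carry a heme group that activates oxygen and inserts it into small fat-soluble molecules. In *C. elegans* they are known for the first phase of detoxification, in which foreign compounds are made reactive enough to be conjugated and exported, and also for making signalling lipids and steroid hormones. Nearly all of those in the endoplasmic reticulum draw electrons from NADPH through the reductase EMB-8.

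The P450 genes were taken as the rows of the expression table whose symbol is *cyp-* followed by a family number, a subfamily letter and a member number, together with *daf-9*, which encodes the P450 of dafachronic acid synthesis, and *emb-8*. This gave 74 of 18510 genes, of which 73 encode P450 enzymes and 1, *emb-8*, the reductase. All 73 carry an InterPro P450 entry in the deposited annotation, and *emb-8* does not. A further gene with that entry, *dach-1*, has another kind of symbol and is described below beside its neighbours without being counted. By position in the RefSeq annotation of WBcel235, 40 of the 74 genes lie on chromosome V, 12 on II, 8 on X, 7 on III, 6 on IV and 1 on I.

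Both libraries came from whole N2 nematodes, the standard wild type, collected at Day 10 of adulthood after liquid culture on *E. coli* NA22. The Control library was from untreated nematodes, and the AbaPep#07 library was from nematodes given 2 mM of the abalone peptide from L4, the last larval stage. Each condition has 1 library, so these data hold no replicate check of any difference below. Every test compares these 2 libraries and not the conditions. The 95% intervals of read ratios are exact (Clopper-Pearson) and cover counting error only, since PCR duplicates could not be removed and the variation between cultures was not measured.

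The reads summed to 19409907 in Control and 19241145 with AbaPep#07, of which the 74 genes took 0.127% and 0.118%. As whole animals were sequenced, fewer cells of a type and less RNA per cell cannot be told apart. Markers of the tissues expected in adults were present, with 7 of 7 intestinal markers at 6.48 to 149.94 FPKM in Control. Their summed reads had an AbaPep#07 to Control ratio of 1.14, which rested on the intestinal actin gene *act-5* (2653 and 5757 reads, called higher). Without it the ratio was 0.928, while without *vha-6* (6596 and 5378 reads) the ratio was 1.38. Of the 7 genes 4 had ratios above 1 and 3 below. All 9 germline and oocyte markers were lower with AbaPep#07, with a ratio of summed reads of 0.815, and so were all 4 pharynx markers, with 0.785. The same ratio was 0.914 for body wall muscle and 0.802 for sperm markers. For hypodermis it was 0.741, or 0.971 without the collagen gene *col-19*. For neurons it was 0.899, or about 1 without *egl-3* and 0.856 without *snb-1*. Early embryo markers were near the limit of detection, with 27 and 35 reads over 6 genes. The part of these shifts in the P450 results was not tested.

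P450 levels spanned more than 3 orders of magnitude. FPKM (read fragments scaled by transcript length and library size) ran from 0 to 145.76 in Control and from 0.04 to 126.15 with AbaPep#07. In each library 29 of the 73 P450 genes were under 1 FPKM, and those at 10 FPKM or more numbered 17 in Control and 19 with AbaPep#07. Expression was concentrated in a few genes. The most abundant P450 transcript in both libraries, *cyp-34A9*, made up 20.9% of the summed P450 FPKM in Control and 18.5% with AbaPep#07, and the 10 highest together made up 68.6% and 63.7%. Summed over the 73 genes, P450 FPKM was 698.06 and 680.77. By reads the sums were 19160 and 18075, a ratio of 0.952 after scaling by the library totals (interval 0.932 to 0.971), whereas summed TPM (the same values rescaled to an equal sum in each library) was 577.41 and 587.02, so the direction of the family total depended on the unit.

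**Figure D1:**
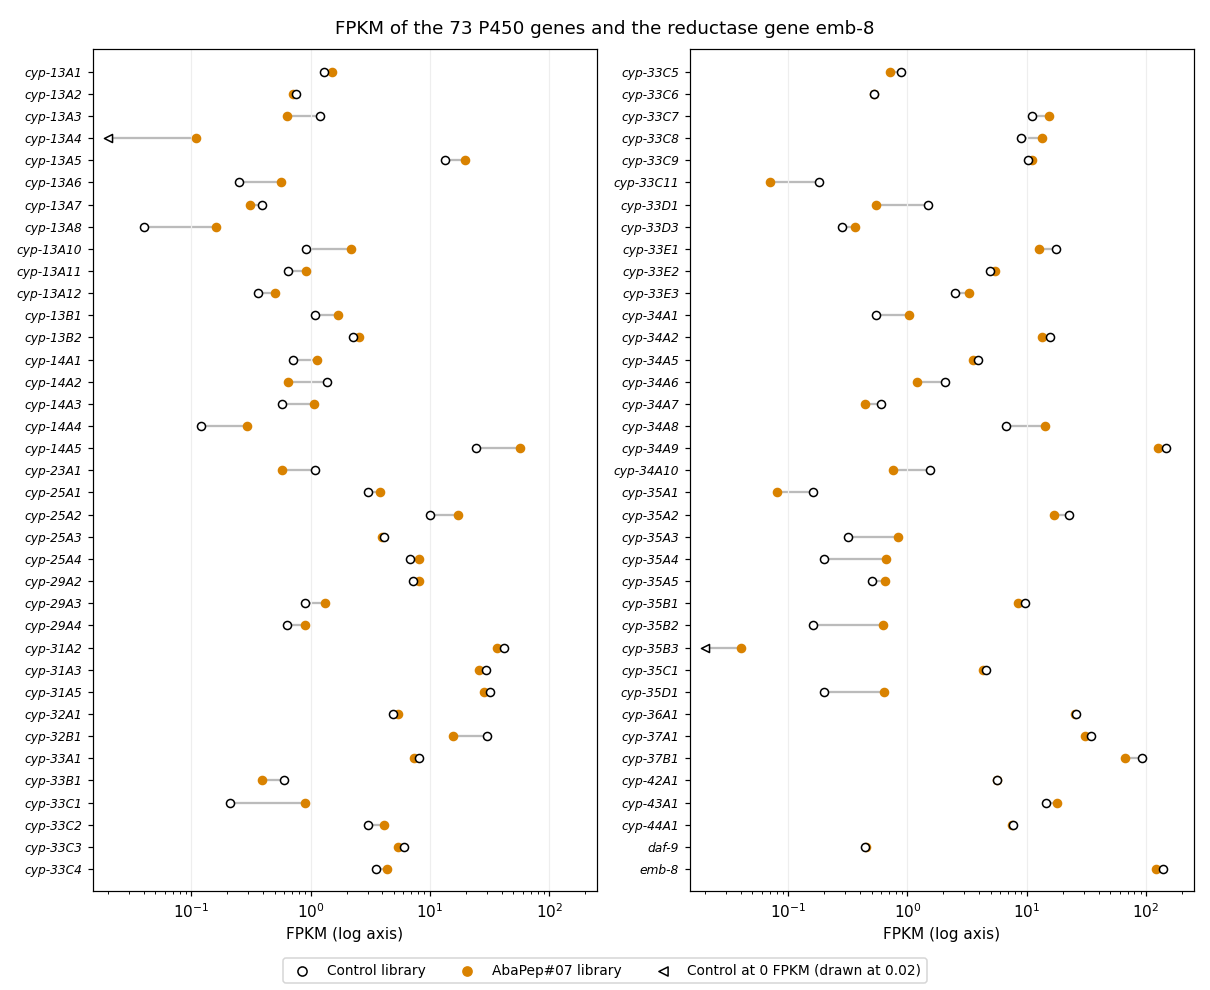
FPKM on a log axis of each of the 73 P450 genes and of *emb-8* in the Control library (open circles) and the AbaPep#07 library (filled circles), joined by a line, with genes at 0 FPKM in Control drawn as triangles at 0.02. The highest P450 gene, *cyp-34A9*, was at 145.76 and 126.15 FPKM, and 29 genes lay under 1 FPKM in each library.

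A gene was called higher or lower when PossionDis, the Poisson-based test for a pair of libraries that the study used, gave an FDR of 0.05 or less over all 18510 genes and the FPKM ratio was at least 2 or at most 0.5. By this rule 5 of the 74 genes (6.76%) were higher with AbaPep#07, where 2.10% of all genes were, and 3 (4.05%) were lower, where 1.43% of all genes were. The higher genes were *cyp-14A5*, *cyp-34A8*, *cyp-13A10*, *cyp-33C1* and *cyp-35B2*. The lower genes were *cyp-14A2*, *cyp-33D1* and *cyp-34A10*. Without the fold threshold, 10 genes (13.5%) had an FDR of 0.05 or less and a higher value and 11 (14.9%) a lower one, shares close to the 13.1% and 12.4% of all genes. The median log2 FPKM ratio was 0.14 over the 74 genes and -0.02 over all genes. Over those whose 2 counts summed to at least 20 reads it was 0.12 (66 genes) and -0.03 (14119 genes).

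Of the 8 called genes, *cyp-14A5* had 2316 reads and *cyp-34A8* 545 over both libraries, and the other 6 had between 20 and 91. The PossionDis test allows for no variation between cultures. With edgeR's exact test, in which cultures were assumed to vary with a coefficient of 0.1, the same thresholds kept *cyp-14A5*, *cyp-34A8* and *cyp-13A10*, 3 of 74 genes, beside 1.96% of all genes. With an assumed coefficient of 0.2 no member was called, beside 0.486% of all genes, although 7 of the 74 (9.46%) had an unadjusted p below 0.05 by that test, as did 3.81% of all genes.

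**Figure D2:**
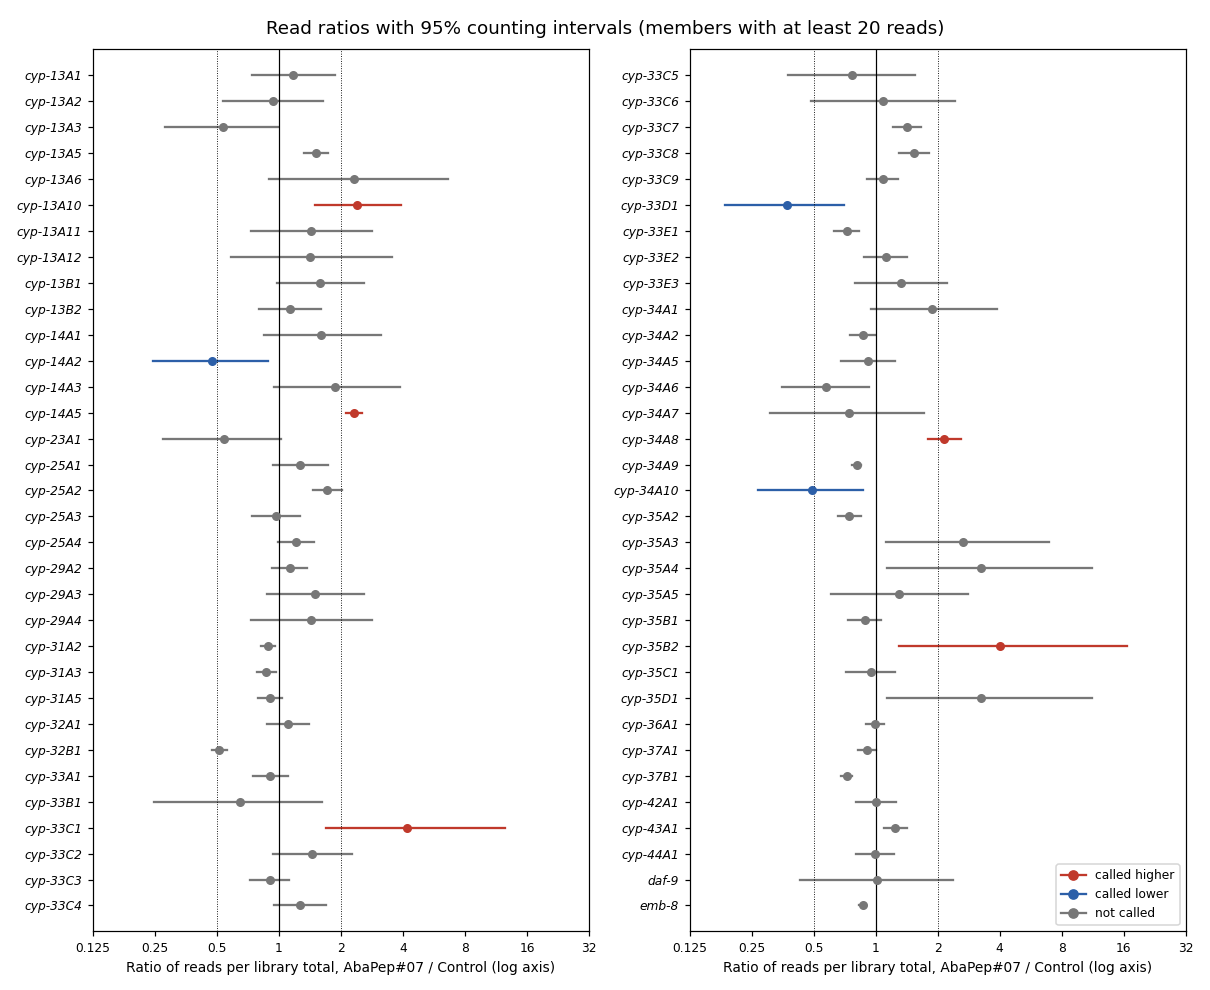
Ratio of reads per library total, AbaPep#07 to Control, on a log axis for the 66 members with a summed count of at least 20 reads, with lines for the exact 95% counting interval and dotted lines at 0.5 and 2. Intervals of abundant genes such as *cyp-14A5* (2.13 to 2.54) and *cyp-34A9* (0.768 to 0.847) are narrow, while that of *cyp-35B2* runs from 1.30 to 16.6.

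The cyp-14A genes belong, with the cyp-33, cyp-34A and cyp-35 genes, to the branch of worm P450s related to the vertebrate drug-metabolising enzymes. Here the highest member by far was *cyp-14A5* (chromosome V, 5421018 to 5423282, minus strand, 7 exons). Its reads numbered 701 in Control and 1615 with AbaPep#07, and its level was 24.54 and 56.64 FPKM. This was 2.31-fold higher, with a PossionDis FDR of 3.84e-82. Its read interval of 2.13 to 2.54 lay wholly above 2, and it went from the ninth to the third highest FPKM among the P450 genes. The other 4 cyp-14A genes stand together on chromosome X between 13265041 and 13284197, all on the minus strand, and were far less abundant. Of these *cyp-14A2* fell, from 34 to 16 reads (1.38 and 0.65 FPKM, interval 0.245 to 0.884, FDR 0.0476). The xenobiotic-inducible *cyp-14A3* had 14 and 26 reads, *cyp-14A1* 17 and 27, and *cyp-14A4* 3 and 7, with intervals that include 1. On the chromosome, *cyp-14A2* lies between *cyp-14A1* and *cyp-14A3*. Its interval overlaps that of *cyp-14A1* (0.842 to 3.13) but not that of *cyp-14A3* (0.943 to 3.88).

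Among the 10 cyp-35 genes, which are intestinal genes used as markers of exposure to foreign compounds and linked to fat storage, *cyp-35B2* was called higher and none was called lower. The highest, *cyp-35A2* (chromosome V, 7362319 to 7364182), had 593 reads in Control and 438 with AbaPep#07, or 22.69 and 16.78 FPKM. Its read interval of 0.657 to 0.844 lay below 1 and the difference was short of 2-fold (FDR 2.69e-05). The gene *cyp-35B1*, known as a gene downstream of DAF-16, had 252 and 221 reads (interval 0.735 to 1.06), and *cyp-35C1* had 111 and 104 (0.716 to 1.25). These were the 3 members of the family above 1 FPKM.

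The other 7 cyp-35 genes were all under 1 FPKM in both libraries, and 4 of them had between 4 and 8 reads in Control and between 16 and 21 with AbaPep#07. For *cyp-35B2* (chromosome V, 3942160 to 3944523) the counts were 4 and 16, for *cyp-35A4* 5 and 16, for *cyp-35D1* 5 and 16 and for *cyp-35A3* 8 and 21. Only *cyp-35B2* was called higher, at 0.16 and 0.62 FPKM with an FDR of 0.0297. The FDRs of *cyp-35A3*, *cyp-35A4* and *cyp-35D1* were 0.0575, 0.0602 and 0.0602, and their intervals began at 1.13. When genes with fewer than 20 reads over both libraries were left out before adjustment, these 3 were also called higher. They pass that minimum only through their AbaPep#07 counts, so the added calls are no further evidence of a difference. For *cyp-35A5* there were 14 and 18 reads, for *cyp-35A1* 4 and 2, and for *cyp-35B3* 0 and 1, too few to show a difference, as a count of 0 allows up to 3 reads.

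The cyp-34A genes gave both the highest P450 level and neighbours with different ratios. For *cyp-34A9* (chromosome V, 3968134 to 3970540, minus strand) there were 3688 reads in Control and 2948 with AbaPep#07. Its level went from 145.76 to 126.15 FPKM, and its read interval was 0.768 to 0.847. Its FPKM ratio, 0.865, lies above that interval, and 4 transcripts are annotated for it, so its FPKM can also depend on how reads were divided among them. Next to it, 310 bases away on the same strand, *cyp-34A8* (3964797 to 3967823) went from 174 to 371 reads, or 6.66 to 14.22 FPKM. It was called 2.14-fold higher (FDR 1.69e-16, interval 1.79 to 2.59). On the other side of *cyp-34A9*, after 161 bases, *cyp-34A10* fell from 39 to 19 reads, 1.56 to 0.76 FPKM (interval 0.268 to 0.871, FDR 0.0394), and by TPM it was short of 2-fold. Of the remaining 5 genes, *cyp-34A1* had 14 and 26 reads and the other 4 had ratios below 1. With the most reads among these, *cyp-34A2* had 455 and 389 (interval 0.751 to 0.990, FDR 0.106). The median log2 ratio over the 8 genes was -0.22.

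These cyp-34A genes share a stretch of chromosome V with part of the cyp-35 genes. Members on the same chromosome with at most 20 kb between neighbours formed 11 arrays that hold 44 of the 74 genes. The largest has 10 members between 3936326 and 3972991, first *cyp-35A5*, *cyp-35B1*, *cyp-35B2* and *cyp-35B3* on the plus strand and then *cyp-34A5* to *cyp-34A10* on the minus strand. It holds 3 of the 8 called genes, 2 higher and 1 lower, where 10.8% of the 74 genes and 3.53% of all genes were called. An array of 10 genes is short for a comparison of shares. Of the 3 calls, *cyp-35B2* rests on 20 reads over both libraries and *cyp-34A10* on 58. The P450-annotated *dach-1* (3950023 to 3952097) lies between the cyp-35 and cyp-34A genes and had 730 and 618 reads, with an interval of 0.766 to 0.952. Within this array the ratio of *cyp-35B2* was above that of its neighbour *cyp-35B1*, and that of *cyp-34A8* above those of *cyp-34A7* and *cyp-34A9*, without overlap of the counting intervals. Over all 33 pairs of neighbouring members in the 11 arrays, the intervals did not overlap in 6 (18.2%). Among all consecutive genes of the table at most 20 kb apart they did not overlap in 14.4% of 18358 pairs, so the share among P450 neighbours was near that of the table.

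**Figure D3:**
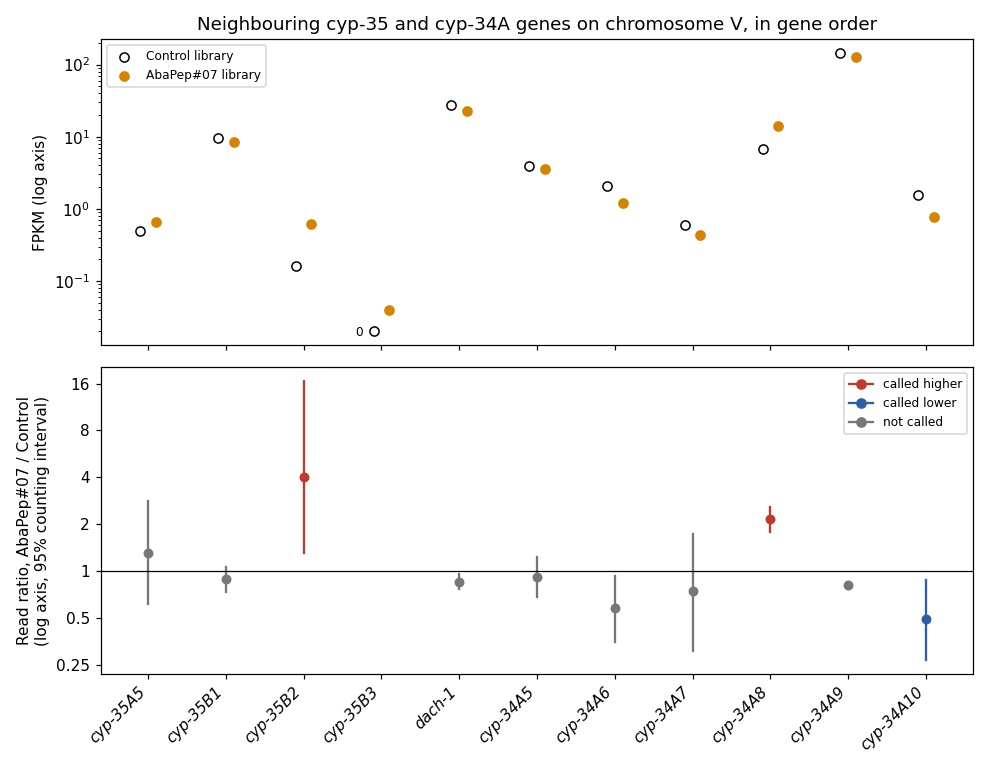
The 10 members of the largest array and *dach-1*, in their order along chromosome V, with FPKM in each library above (log axis, the Control value of 0 for *cyp-35B3* drawn at 0.02) and the read ratio with its exact 95% counting interval below (log axis). The called genes *cyp-35B2*, *cyp-34A8* and *cyp-34A10* stand beside genes with other ratios, among them *cyp-34A9* at 0.806, and no ratio is drawn for *cyp-35B3*, which had 0 and 1 reads.

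The cyp-33 genes are the largest family here, with 17 members, and went both ways. Of the 10 cyp-33C genes, *cyp-33C1* was called higher on few reads, 6 in Control and 25 with AbaPep#07 (0.21 and 0.89 FPKM, interval 1.68 to 12.5, FDR 0.00305). Better measured were *cyp-33C7*, with 271 and 380 reads (interval 1.21 to 1.66), and *cyp-33C8*, with 237 and 359 (1.29 to 1.81), both higher at an FDR of 0.05 or less without reaching 2-fold. By contrast *cyp-33C9* had 264 and 283 reads and *cyp-33C3* 176 and 157, with intervals that include 1. The summed reads of the cyp-33C genes were 1119 and 1400, a ratio of 1.26 (1.17 to 1.37). In the cyp-33E genes the most abundant, *cyp-33E1*, went from 495 to 355 reads (17.50 and 12.57 FPKM, interval 0.629 to 0.831), short of 2-fold. Its relative *cyp-33E2*, whose enzyme makes eicosanoids from polyunsaturated fatty acids in the pharynx, had 132 and 146 reads (0.876 to 1.42). The remaining call, *cyp-33D1*, fell from 38 to 14 reads, 1.5 to 0.55 FPKM, with an interval of 0.186 to 0.702 and an FDR of 0.00523.

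Worm cyp-13, cyp-25A and cyp-43A1 enzymes are related to the broad-specificity vertebrate enzymes of the liver and gut. Over the 13 cyp-13 genes the median log2 ratio was 0.49, with 10 ratios above 1, and the summed reads were 631 and 887, a ratio of 1.42 (1.28 to 1.57). Most of these reads belonged to *cyp-13A5*, which went from 366 to 547 reads (13.27 and 19.87 FPKM, interval 1.32 to 1.73), with an FDR of 1.28e-08 but without reaching 2-fold. On chromosome II, *cyp-13A10* (9660839 to 9662884) was called higher, from 27 to 64 reads or 0.92 to 2.19 FPKM (interval 1.5 to 3.90, FDR 0.000586). It stands apart from the array of 8 cyp-13A genes that runs from 9779181 to 9807569, in which none was called. Within that array *cyp-13A3* had 32 and 17 reads, with an interval of 0.279 to 0.994 and an FDR of 0.114. The oxygen-response gene *cyp-13A12* had 10 and 14 reads, and *cyp-13A4* had 0 and 3.

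The xenobiotic-inducible *cyp-25A2* had 249.87 estimated reads in Control and 425.94 with AbaPep#07, or 10.10 and 17.23 FPKM, with an FDR of 8.07e-11 and a ratio of 1.71 by FPKM. RSEM divided reads between it and its neighbours *cyp-25A1* and *cyp-25A3*, as the 3 fractional counts add up to 447.99 and 639. This sum, which does not depend on that division, had a ratio of 1.44 (1.28 to 1.63). The fourth gene, *cyp-25A4*, had 181 and 217 reads (0.988 to 1.48). Similarly modest, *cyp-43A1* went from 404 to 499 reads (1.09 to 1.42, FDR 0.0057).

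The cyp-29A, cyp-31A, cyp-32, cyp-37 and *cyp-42A1* enzymes belong to the branch of fatty acid hydroxylases. The largest fall in reads of any member was that of *cyp-32B1* (chromosome V, 2197997 to 2201415, minus strand, 8 exons), with 1614 reads in Control and 822 with AbaPep#07, or 30.31 and 15.51 FPKM. At an FPKM ratio of 0.512 it was just outside the 2-fold threshold, although its FDR of 1.77e-55 was the lowest of the 74 genes after that of *cyp-14A5*. Its interval of 0.472 to 0.559 includes 0.5. Its relative *cyp-32A1* had 141 and 154 reads (0.871 to 1.39). Second in level among all P450 genes, *cyp-37B1* went from 2577 to 1843 reads (92.16 and 66.02 FPKM, interval 0.679 to 0.766), and *cyp-37A1* had 847 and 761 (FDR 0.147).

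The cyp-31A enzymes are needed with EMB-8 to make the lipids of the eggshell's permeability barrier. Together *cyp-31A2*, *cyp-31A3* and *cyp-31A5* had 2585 and 2265 estimated reads, a ratio of 0.884 (0.835 to 0.936), and each had a ratio below 1. For *cyp-31A2* these were 1375 and 1208 reads (41.45 and 36.52 FPKM) and for *cyp-31A3* 749.24 and 644.89 (29.66 and 25.55 FPKM), both with an FDR of 0.05 or less. Their counts are fractional, so reads were divided among genes of similar sequence. The reductase gene *emb-8* (chromosome III, 5196680 to 5199677), had 5414 and 4647 reads, or 139.56 and 120.22 FPKM, with an interval of 0.832 to 0.901. The 9 germline and oocyte markers, with FPKM ratios from 0.740 to 0.902, moved the same way, and their part in these shifts was not tested. In contrast to the cyp-31A genes, the 3 cyp-29A genes had ratios above 1 without passing the FDR threshold. Among them was *cyp-29A3*, an eicosanoid-making enzyme, with 25 and 37 reads (0.875 to 2.59).

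The remaining P450 genes, each the only member of its family here, were not called. The dafachronic acid enzyme gene *daf-9* (chromosome X, 6196927 to 6200823) had 13 reads in each, or 0.44 and 0.45 FPKM, and its interval of 0.431 to 2.36 leaves changes of up to about that size undetectable. More reads stood behind *cyp-36A1*, which acts downstream of the oxygen sensor EGL-9, with 732 and 721 (0.895 to 1.10). The mitochondrial-type *cyp-44A1* had 186.28 and 183.78 estimated reads (0.805 to 1.22). It overlaps *npp-24* by 106 bases on the same strand, and the reads of both genes add up to whole numbers, 2010 and 1735. For *cyp-42A1* the counts were 168 and 167 (0.805 to 1.25). The lowest ratio of these 5 genes was that of *cyp-23A1*, which had 30 and 16 reads, with an interval of 0.274 to 1.02 and an FDR of 0.133.

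Ratio and level were related in description. The 29 P450 genes with a mean FPKM under 1 had a median log2 ratio of 0.49, with 19 ratios above 1 and 9 below, where the 5002 genes of the table in that range had a median of 0.00. Between 1 and 10 FPKM the median was 0.13 over 25 P450 genes and 0.02 over all. At 10 FPKM or more it was -0.15 over 19 P450 genes and -0.05 over all, or -0.09 and 0.01 by TPM among genes with at least 20 reads. Of these 19 abundant genes, 7 were higher and 7 lower at an FDR of 0.05 or less (36.8% each), where 20.3% and 22.0% of the 8408 genes of the table in that range were. The scarce genes share a low count, so that many of their ratios, taken singly, are within counting error.

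**Figure D4:**
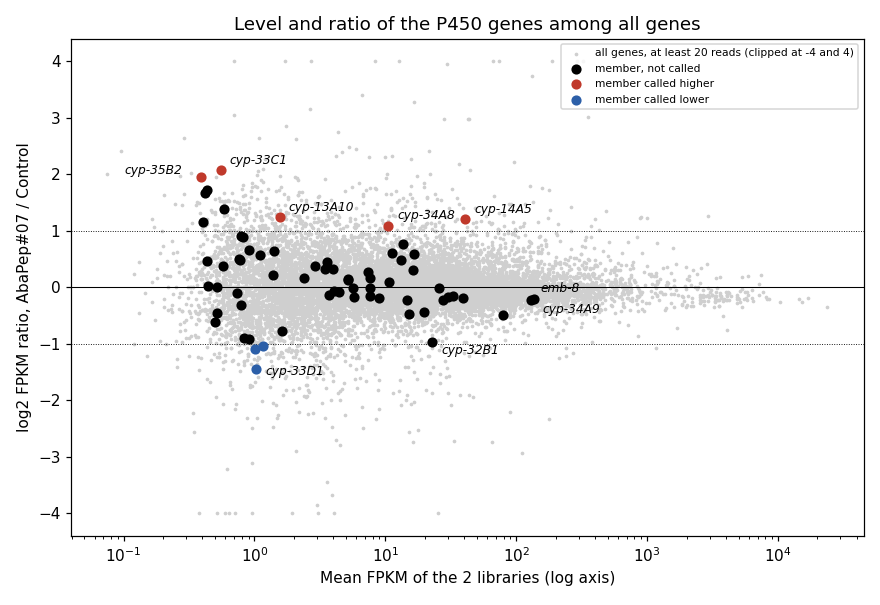
log2 FPKM ratio, AbaPep#07 to Control, against the mean FPKM of the 2 libraries (log axis) for all genes with at least 20 reads (grey, clipped at the ends of the axis) and for the 66 members with that many reads, coloured by call. Most called members lie toward the low end of the FPKM axis, with *cyp-14A5* and *cyp-34A8* the exceptions above 10 FPKM, and *cyp-32B1* is just inside the lower dotted line at -1.

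No gene on the lists of P450 partners was called, where 3.53% of all genes were. At that share, lists this short can hold no call without differing from the table. Among 4 genes of electron transfer and P450 binding, the cytochrome b5 gene *cytb-5.1* had 1148 and 1302 reads (1.06 to 1.24) and the b5 reductase gene *hpo-19* 2771 and 3066 estimated reads (1.06 to 1.18). Heme cannot be made by *C. elegans* and has to be taken up. Of 8 heme trafficking genes in the table, *hrg-7*, which encodes a secreted protein that carries the signal of heme status between tissues, went from 234 to 429 reads (interval 1.57 to 2.18). The heme exporter gene *mrp-5* went from 4778 to 5611 reads (1.14 to 1.23). Both passed the FDR threshold without reaching 2-fold, and 0 of the 8 were called. Around *daf-9*, 0 of 7 genes of the dafachronic acid pathway were called. Upstream of it, *daf-36*, which encodes the oxygenase of the first step from cholesterol, had 77 and 120 reads (1.17 to 2.12, FDR 0.00941), and the sterol methyltransferase gene *strm-1*, whose product draws sterols away from that route, had 107 and 64 (0.436 to 0.830, FDR 0.0068). The gene of the dafachronic acid receptor, *daf-12*, had 789 and 847 reads (0.982 to 1.19) but 16.44 and 16.04 FPKM, so its direction depended on the unit.

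None of 14 regulators of P450 transcription was called, where 3.53% of all genes were, so this list too is short for a comparison of shares. The gene *elt-2*, which encodes an intestinal GATA factor and is also among the intestinal markers, had 251 reads in Control and 400 with AbaPep#07 (interval 1.37 to 1.89) and had the highest ratio among them. For *skn-1*, which encodes the transcription factor studied with this peptide, the counts were 5492 and 5830 (1.03 to 1.11). Reads of *daf-16* were lower, with 4693 and 4362 (0.900 to 0.977, FDR 0.0113). So were those of *sbp-1*, with 1668 and 1503 (0.847 to 0.975, FDR 0.0314). By the FDR threshold alone, 2 of the 14 genes were higher, *elt-2* and *skn-1*, and 2 were lower, *daf-16* and *sbp-1*. The xenobiotic receptor gene *nhr-8* had 479 and 429 (0.791 to 1.03), the aryl hydrocarbon receptor gene *ahr-1* 40 and 51, and *mdt-15*, a Mediator subunit gene that cyp-35 expression depends on, 4654 and 4516 (0.939 to 1.02).

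Compared with the other large detoxification families, the P450 genes had a share of calls near that of the UDP-glucuronosyltransferase genes. Of 66 *ugt-* genes, 5 were higher and 3 lower (12.1%), and of 43 *gst-* genes, which encode glutathione transferases, 0 were higher and 1 lower (2.33%), against 8 of 74 P450 genes (10.8%) and 3.53% of all genes. At an FDR of 0.05 or less without the fold threshold, the shares were 47.0%, 30.2% and 28.4%, and that of all genes was 25.5%, close to the share of the P450 genes. These differences between families were not tested.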

How the data were processed

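RNA of whole nematodes was measured in 1 Control and 1 AbaPep#07 library, grouped by the labels. By their methods and the submitters' processing notes, the authors used SOAPnuke for read cleaning, Bowtie2 (2.2.5) for alignment to gene sequences and RSEM (1.2.12) for expression, on WBcel235. Their deposited table holds estimated counts without normalization, which RSEM divides among similar genes, and FPKM and TPM values of the authors rounded to 2 decimals. The deposited log2 ratios, p-values and FDR values of the authors' own comparison were not used.

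PossionDis p-values were recomputed on counts rounded down (the upper tail without the observed count, the lower tail with it, doubled), with Benjamini-Hochberg adjustment over all 18510 genes. An FPKM of 0 was replaced by 0.01. The methods do not give the form of the tails. It was taken over from an earlier analysis of these data, which had derived it from the study's own p-values, so these calls are no independent check of the study's. Quasi-likelihood and DESeq2 tests need replicates and could not be fitted. Scaling factors, and the exact test of edgeR with an assumed variation between cultures, used counts rounded to the nearest whole, with edgeR 4.0.16, DESeq2 1.42.0 and R 4.3.3. Python 3.11.15, numpy 2.4.6, pandas 2.3.3, scipy 1.17.1 and matplotlib 3.10.9 did the rest. Both tests were run on simulated counts in which the changed genes differed by more than the 2-fold threshold. Recovery of changes near 2-fold was therefore not checked.

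Depth was 19409907 and 19241145 reads. Positions come from RefSeq and strands and exons from Ensembl, both on WBcel235, in which all 74 genes were found. The 67 genes other than 3 cyp-25A, 3 cyp-31A and *cyp-44A1* had whole counts.

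Named genes are the called members, the 10 of highest mean FPKM, 16 chosen for their roles or use as markers, and their array neighbours. Others, among them *cyp-35A3*, *cyp-35A4*, *cyp-35D1*, *cyp-33C7*, *cyp-33E1* and *cyp-43A1*, were named after their values were seen. Members and lists were chosen with earlier results of these data known. *hrg-9* and *hsd-1* were not analysed here. Alternatives covered tails, unit of the ratio, scaling, read minimum, added FPKM, adjustment, assumed variation and fractional counts.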

Additional observations from a re-analysis of the deposited data

How the results depend on the processing

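With 5 genes called higher, 3 lower and a median log2 ratio of 0.14 as reported, no alternative turned the direction of the median or of any named gene's call. The counts stayed at 5 and 3 with inclusive tails, with the ratio of reads, with DESeq2 scaling and without fractional counts. Over all genes the calls were 388 and 265 as reported. With these alternatives, in that order, they were 341 and 265, 405 and 255, 404 and 255, and 320 and 216. The counts of members were 5 and 2 with TPM, which lost *cyp-34A10*, and with TMM, which lost *cyp-14A2*. Those of all genes were 432 and 248 with TPM and 409 and 240 with TMM. A minimum of 20 reads over both libraries gave 8 higher and 3 lower, where 354 and 245 of all genes were. It added *cyp-35A3*, *cyp-35A4* and *cyp-35D1*, since fewer genes were adjusted for and their AbaPep#07 counts carried them past the minimum. Adding 1 FPKM left 1 higher, *cyp-14A5*, and 0 lower, beside 182 and 136 of all genes. Bonferroni adjustment left 2 higher, *cyp-14A5* and *cyp-34A8*, and 0 lower, beside 172 and 96 of all genes. The edgeR exact test left 3 higher and 0 lower with an assumed coefficient of variation of 0.1, beside 219 and 144 of all genes. With 0.2 and with 0.4 it left 0 in either direction, beside 50 and 40, and 6 and 1, of all genes. By the same test with 0.2 and 0.4, 7 and 0 of the 74 genes, and 706 and 146 of all 18510, had an unadjusted p below 0.05. The median was 0.15 by reads, 0.20 by TPM, 0.16 with TMM, 0.15 with DESeq2 scaling, 0.12 with at least 20 reads, 0.0901 with 1 FPKM added and 0.17 over genes with whole counts. Of the 8 called genes, 6 rest on 20 to 91 reads, and the variation between cultures, which decides how many calls stand, was not measured. No paired analysis was possible because each condition has 1 library, and for the same reason no replicate could be left out.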
